A study of Citrus unshiu with 6 samples.

Results

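Peel of control (CK) Satsuma mandarin fruit at 80 days after full bloom (DAFB) was set against CK peel at 30 DAFB, to describe the transcripts of a normal peel over its early growth. The members are all genes with an FPKM (fragments of a gene scaled to its transcript length and to the fragments mapped in the library) of at least 1 in the higher of the CK80 and CK30 libraries. They numbered 17387 of the 23099 genes in the table. Of the rest, 4187 stayed below an FPKM of 1 but above 0 in at least one of these libraries, and 1525 were listed at 0 in both. The highest value left out was 0.99 and the lowest kept was 1.0.

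The fruits were “Yamashitabeni wase”, an early Satsuma cultivar of Citrus unshiu, grafted on trifoliate orange. CK80 and CK30 came from trees that kept their fruits under normal orchard management. RD80 and RD30, used here as a second pair of peels over the same interval, came from trees that were defruited to induce peel roughing disorder (RD). CK170 and RD170 are the mature peels of the same study. Each library was made from 1 pool of peel from several fruits and trees, so no value has a replicate error, and no p-value or SD is given. A gene or list that differed between CK80 and CK30 differed between 2 pools. Tree, fruit load, and treatment cannot be told apart between the CK and RD peels. The hour of sampling is not given in the sources used here.

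Citrus peel consists of the flavedo, an outer green layer that carries chloroplasts and oil glands, and the albedo, a white and spongy inner layer. In young fruit the peel grows mainly by cell division. Afterwards its cells enlarge, and the flavedo remains photosynthetic until the fruit loses its green color.

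A gene was counted as higher or lower when its FPKM differed at least 2-fold between the libraries. In CK80, 4064 members were higher than in CK30 (23.4%) and 1576 were lower (9.06%). The other 11747 differed by less. At 4-fold the numbers were 1407 higher and 647 lower, and at 10-fold 487 and 259. An FPKM of at least 1 was reached by 1361 genes in CK80 alone and by 621 in CK30 alone. Of the members, 148 were listed at 0 in CK30 and 77 at 0 in CK80. Near the limit, 1920 members had a ratio of 1.8- to 2.2-fold either way. More RNA of a gene in 1 peel can mean more cells that make it or more of it per cell, which cannot be told apart here.

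The ratios were centered above 0. Over 15405 genes with an FPKM of at least 1 in both libraries, the median log2 ratio of CK80 to CK30 was 0.31, which is 1.24-fold. Relative to that median, 2838 members were higher (16.3%) and 2278 were lower (13.1%). The share of higher genes among those changed was thus 72.1% by the deposited values and 55.5% relative to the median. The balance of rises and falls varied with abundance. Of the 4204 members whose higher FPKM was between 1 and 5, 33.7% were higher and 12.96% lower. Of the 6622 between 5 and 20, 20.99% were higher and 5.86% lower, and of the 5238 between 20 and 100, 18.9% were higher and 7.45% lower. Of the 1323 members that reached 100, 20.4% were higher and 19.1% lower.

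CK30 stood apart from the other libraries taken before maturity, and every count against it has to be read beside the RD pair. The correlation of log2(FPKM + 1) across genes was 0.92 between CK80 and CK30, 0.94 between RD30 and CK30, 0.95 between CK80 and RD30, 0.96 between RD80 and RD30, and 0.98 between CK80 and RD80. An FPKM of 1 was reached by 16766 genes in CK80 and 16026 in CK30, and by 17001 in RD80 and 17155 in RD30. In the RD pair, 1273 of 17794 expressed genes were at least 2-fold higher at 80 DAFB (7.15%) and 1680 were lower (9.44%), around a median log2 ratio of -0.01. With RD30 in place of CK30, CK80 had 1530 higher and 2257 lower genes.

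The CK and RD pairs share no library, so their changes were set side by side. Of the genes higher in CK80 than in CK30, 838 were also higher in RD80 than in RD30, which is 20.6% of the CK rises and 65.8% of the RD rises. Of the genes lower in CK80, 683 were lower in RD80, which is 43.3% of the CK falls and 40.7% of the RD falls. The CK rises had a median log2 ratio of 1.59 in CK and 0.35 in RD, and the CK falls of -1.67 in CK and -0.90 in RD. For 2985 of the 4064 rises (73.5%), RD30 lay within 2-fold of CK80 or above it, as it did for 91.2% of all members. For 684 of the 1576 falls (43.4%), RD30 lay within 2-fold of CK80 or below it, as it did for 89.3% of all members. Across 16842 genes, the log2 ratios of the pairs had a Pearson r of 0.57 and a Spearman rho of 0.46. These are a description across genes, which are not replicates.

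**Figure D1:**
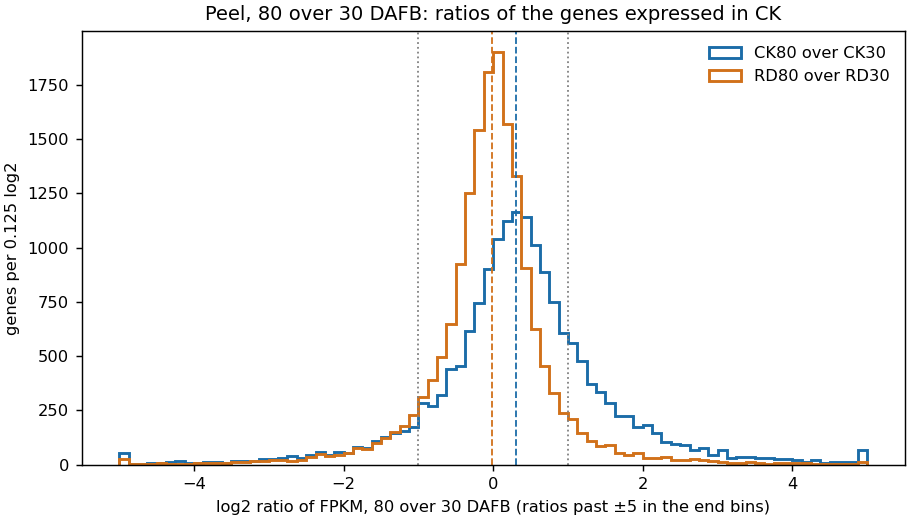
Number of genes (y axis, per bin) by log2 ratio of FPKM at 80 over 30 DAFB (x axis) in CK (blue) and RD (orange) peel, for the genes expressed in CK. Dashed lines mark the medians over all genes, 0.31 in CK and -0.01 in RD, and dotted lines mark 2-fold, so the CK curve is wider and lies to the right.

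The tissue label was checked first. Genes of green peel were abundant in both CK libraries: the light-harvesting protein 3C (Cs2g03780), which binds chlorophyll, had an FPKM of 10984 in CK80 and 4395 in CK30. The oil gland enzyme limonene synthase (Cs3g04360) had 728 and 237. Seed, flower, and pollen genes left few traces. Of the 10 genes in the table described as seed storage or late embryogenesis proteins, 4 were expressed, and their summed FPKM of 707 in CK80 and 235 in CK30 came almost entirely from the stress-related Lea5 (Cs9g04210, 691 and 223). Of 9 flower and pollen genes 4 were expressed, with sums of 12.8 in CK80 and 10.02 in CK30. Of 13 vascular genes 9 were expressed, with sums of 113 in CK80 and 177 in CK30, and 5 of them were higher and 1 lower in CK80. The part of vascular tissue in the results below was not tested.

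Genes of photosynthesis rose together in CK peel. Of 22 expressed genes of the light reactions, which capture light and make ATP and NADPH, 19 were higher in CK80 than in CK30, 3 differed by less, and their median log2 ratio was 1.77. Of 8 genes of carbon fixation, the cycle that turns CO2 into sugar, 6 were higher, 2 differed by less, and the median was 2.54. The light reaction genes summed to an FPKM of 18062 in CK80 and 6336 in CK30, and the carbon fixation genes to 8821 and 1448. After the median ratio of all genes was taken off, 17 and 6 of them were higher.

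Among single light reaction genes, the ATP synthase gamma chain (Cs2g03080) had an FPKM of 140.0 in CK80 and 16.7 in CK30. It is the rotating shaft of the enzyme that makes ATP in chloroplasts. The light-harvesting protein CP24 (orange1.1t03504) had 703 in CK80 and 168 in CK30, and the photosystem II subunit W (Cs8g13660) had 740 and 146. Those 2 genes were chosen after their values were seen. The 3 light reaction genes short of 2-fold were still above their CK30 value in CK80: the photosystem II core protein D2 (Cs1g18810) with 8.58 and 5.04, a psbP domain protein (Cs3g27720) with 25.02 and 15.02, and a second gamma chain (Cs4g10260) with 3.31 and 3.16.

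The largest rise within the carbon fixation list was that of an aldolase. This chloroplast fructose-bisphosphate aldolase (Cs8g08710), an enzyme of the Calvin cycle, had 2787 in CK80 and 190 in CK30, a log2 ratio of 3.88. The small chain of rubisco (Cs6g18680), which fixes CO2, had 4419 in CK80 and 912 in CK30. Outside the list, a chloroplast carbonic anhydrase (Cs2g28060), which interconverts CO2 and bicarbonate, had 340 in CK80 and 4.50 in CK30 and was among the 10 largest rises of all described genes.

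The rise of the photosynthesis genes depended on whether CK80 was set against CK30 or RD30. Each is 1 pool, so whether CK30 was low or RD30 high for its stage was not tested. All 22 light reaction genes had more FPKM in RD30 than in CK30, and 19 of them at least 2-fold more. In the RD pair 1 of 23 light reaction genes was higher and 1 lower, with a median of 0.17. The second gamma chain Cs4g10260 was the lower one, with 5.93 in RD80 and 14.7 in RD30, and the higher one was below an FPKM of 1 in CK peel. Carbon fixation kept part of its rise there, with 3 of 8 genes higher and a median of 0.46. Aldolase Cs8g08710 had 2190 in RD80 and 1048 in RD30, rubisco small chain Cs6g18680 had 3842 and 2865, and the carbonic anhydrase Cs2g28060, outside the list, had 433 and 156. Against RD30, CK80 had 1 higher and 2 lower light reaction genes, and 3 of 8 carbon fixation genes were higher and none lower.

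**Figure D2:**
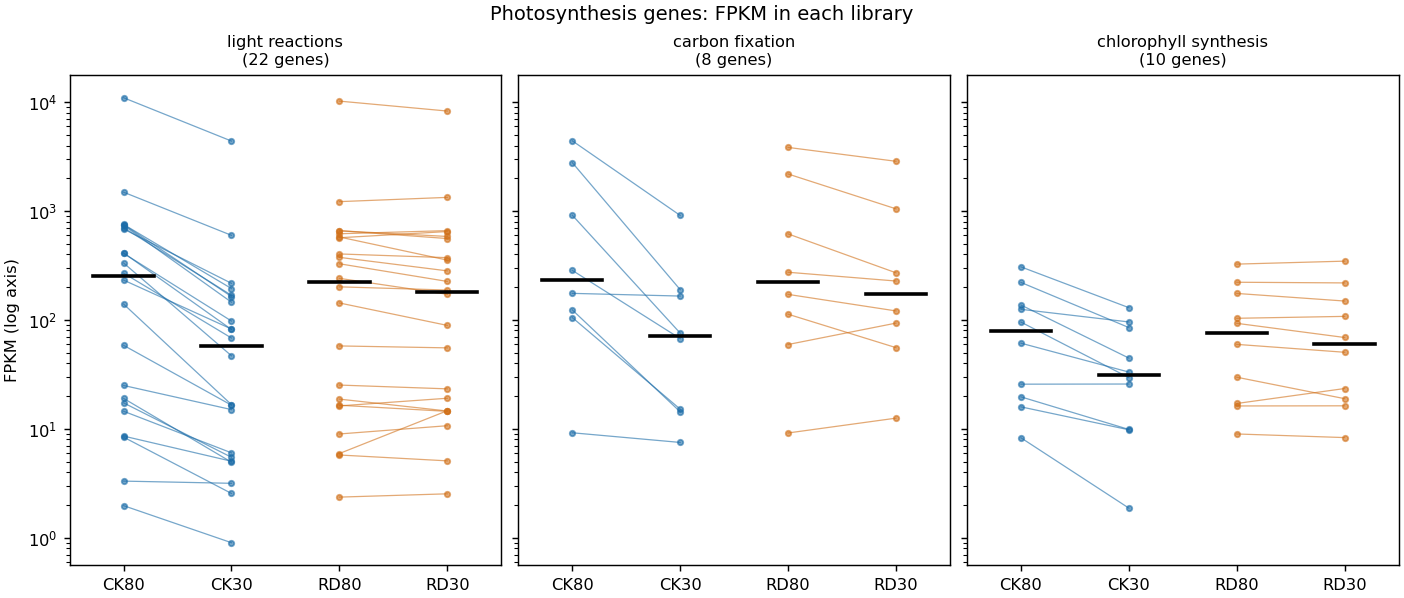
FPKM (log axis) of the expressed genes of 3 photosynthesis lists in CK80, CK30, RD80, and RD30, where lines join a gene's values in a pair and bars mark the median. For the light reactions the medians were 251 in CK80, 57.6 in CK30, 221 in RD80, and 180 in RD30, so CK30 is the low library.

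Pigment and plastid genes moved the same way. Of 10 genes of chlorophyll synthesis, 5 were higher in CK80 and none was lower. Magnesium-protoporphyrin cyclase (Cs6g16200, chosen after its value was seen) had 221 in CK80 and 85.1 in CK30, and protochlorophyllide reductase (Cs1g06850), which makes chlorophyllide in the light, had 307 and 130. In RD peel none of the 10 passed 2-fold, and Cs1g06850 had 326 in RD80 and 347 in RD30. Of 6 genes of chlorophyll breakdown, 3 were higher and 1 was lower. Pheophorbide a oxygenase (Cs8g15480), which opens the chlorophyll ring, had 67.3 in CK80 and 22.5 in CK30. Chlorophyllase-1 (Cs5g16830), which removes the phytol tail, had 20.02 in CK80 and 190 in CK30, with 53.4 in RD80 and 115 in RD30. It was the one gene of these lists that fell in both peels.

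Of 28 carotenoid genes, 14 were higher in CK80, the other 14 differed by less, and the median log2 ratio was 0.96. Carotenoid cleavage dioxygenase 4 (Cs7g14820), which cuts carotenoids, had 26.6 in CK80 and 0.36 in CK30, against 26.5 in RD80 and 6.31 in RD30. Zeaxanthin epoxidase (Cs4g20590), the most abundant of the list, differed little, with 479 in CK80 and 387 in CK30. In the RD pair 2 of 28 were higher. Of 21 plastid ribosomal proteins, 9 were higher in CK80, none was lower, and the median was 0.94, though with the median ratio of all genes taken off 4 were higher. They were led by S1 (orange1.1t02357) with 30.3 in CK80 and 5.66 in CK30. Cytosolic ribosomal proteins had a ratio near that of a typical gene: 2 of 48 were higher, none was lower, and their median was 0.34. None of the 22 plastid ribosomal proteins expressed in RD peel passed 2-fold there.

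Part of the cell division genes, mainly mitotic cyclins and kinesins, were lower in CK80. Cyclins switch on cyclin-dependent kinases, which drive the cell cycle. Of 49 genes of this list, 16 were lower in CK80 and 2 were higher, against 16 lower and 2 higher of 53 in RD80. Most of these genes were weak, and of the 21 that reached 5 FPKM in CK peel 4 were lower and 1 was higher. The A-type, B-type, and G2/mitotic-specific cyclins, which act before and during mitosis, held most of the falls: 11 of 14 were lower in CK80, none was higher, and the median log2 ratio was -2.06. In RD peel 8 of the 14 were lower and none higher, with a median of -1.0. The kinase CDKB2-2 (Cs3g27820), a plant-specific kinase of mitosis, had 5.24 in CK80 and 23.2 in CK30, and 7.71 in RD80 and 19.0 in RD30.

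Of the mitotic cyclins, 13 of 14 had less than 10 FPKM in CK80, CK30, RD80, and RD30. Cyclin-A2-1 (Cs4g20290) had 0.87 in CK80 and 8.10 in CK30, with 1.79 in RD80 and 3.54 in RD30. Cyclin-B2-3 (Cs8g01560) had 0.95 and 4.43 in CK, and 0.91 and 2.46 in RD. Cyclin-A2-3 (Cs2g21670) was listed at 0 in CK80 and RD80, and had 1.14 in CK30 and 2.32 in RD30. Cyclin-B1-2 (Cs6g18950) was the exception, with 74.8 in CK80 and 65.1 in CK30. Those 4 were chosen after their values were seen. Neither rise of the list was a mitotic cyclin. Cyclin-T1-5 (Cs2g10610), a cyclin of transcription, had 117 in CK80 and 44.2 in CK30, and a subunit of the anaphase-promoting complex (Cs2g06810) had 2.95 and 1.02. None of the 8 expressed D-type cyclins, which act at the entry into the cycle, passed 2-fold in CK peel.

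Replication genes, which copy DNA before division, were less uniform. Of 41 DNA replication genes, 9 were lower in CK80 and 3 higher, but their median log2 ratio was 0.08. This balance depended on weak genes: of the 16 that reached 5 FPKM 1 was lower and 2 were higher, and with a pseudocount of 1 it was 2 and 2 of 41. In the RD pair 3 of 46 were lower and 2 higher. The factor E2FA (Cs6g13890), which turns on S-phase genes, had 4.62 in CK80 and 19.0 in CK30, and 3.0 in RD80 and 4.73 in RD30. Of 10 histone genes, 2 were lower in CK80 and none was higher. Histone H2B.6 (Cs3g15210) had 3.09 in CK80 and 23.0 in CK30, 4.29 in RD80 and 14.1 in RD30, and was listed at 0 in CK170 and RD170. Histone H2A (Cs6g05830), the most abundant, had 121 in CK80 and 118 in CK30.

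Of 39 kinesins, motors that move along microtubules, 18 were lower in CK80 and 2 were higher, with a median log2 ratio of -0.87. In RD peel 8 of 40 were lower and none higher, with a median of -0.39. Of the whole list of kinesins, tubulins, and cytokinesis, 21 of 66 were lower and 10 higher, against 8 and 5 of the 40 that reached 5 FPKM. The kinesin KIF19 (Cs1g20970) had 7.03 in CK80 and 21.9 in CK30, and 9.85 in RD80 and 19.6 in RD30. NACK1 (Cs5g12860), which in tobacco is needed to build the cell plate, had 0.41 in CK80 and 1.84 in CK30 and was chosen after its value was seen. The tubulins did not follow: none of 7 was lower, and an alpha tubulin (Cs8g03680) had 680 in CK80 and 373 in CK30. With RD30 in place of CK30, CK80 had 21 lower genes of 51 in the cyclin list and 13 of 43 in the replication list. It had 4 of 11 among the histones, and 20 of 67 in the list of kinesins and tubulins. Over all genes, 2257 of 17791 were lower in that comparison. These counts include weak genes and were not repeated at 5 FPKM.

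**Figure D3:**
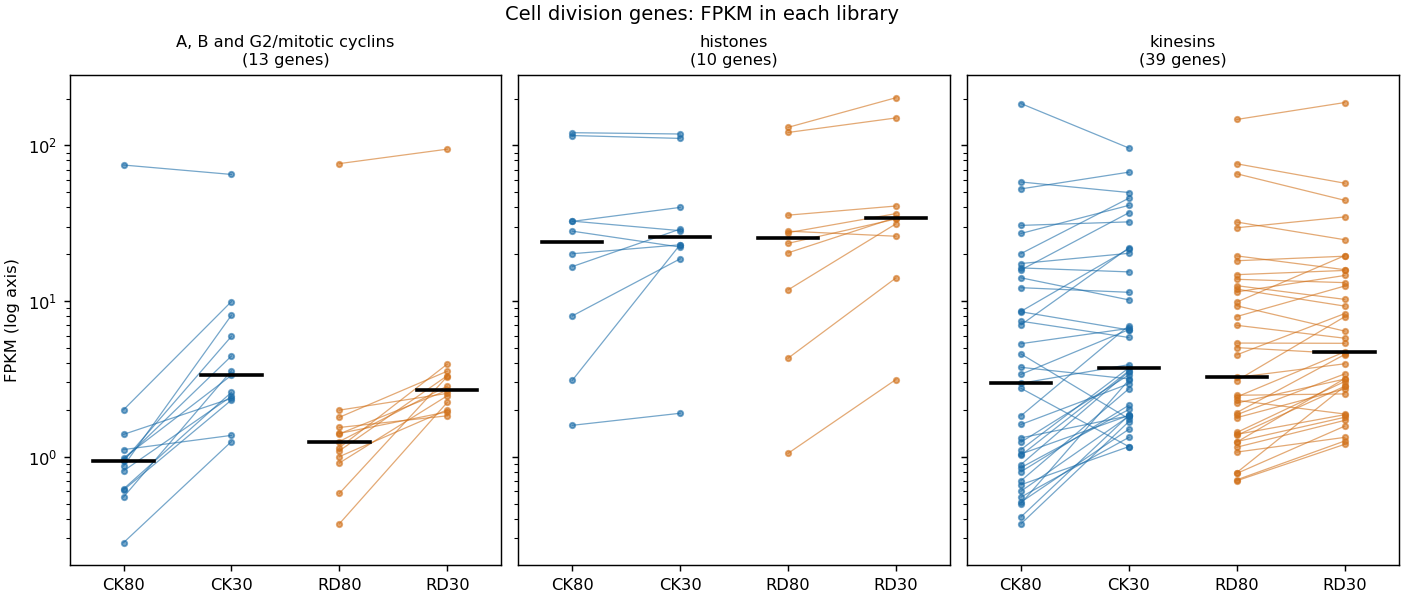
FPKM (log axis) of mitotic cyclins (13 of 14, without the one listed at 0), histones, and kinesins in CK80, CK30, RD80, and RD30, where lines join a gene's values in a pair and bars mark the median. The cyclin medians were 0.94 in CK80 and 3.33 in CK30, and 1.25 in RD80 and 2.67 in RD30, so 80 DAFB is the low side in both pairs.

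Cell wall genes split by class. Expansins loosen the wall so that cells can enlarge. Of 10 members, 4 were higher in CK80 and 1 was lower, against 6 higher and 1 lower in RD80. Expansin-A1 (Cs5g10820) was by far the clearest, with 428 in CK80 and 7.41 in CK30, a log2 ratio of 5.85. It had 457 in RD80 and 49.6 in RD30, and 2203 in CK170. Expansin-A5 (Cs6g21460), the most abundant at 30 DAFB, had 258 in CK80 and 613 in CK30. Expansin-like B1 (Cs2g26323) had 5.77 in CK80 and was listed at 0 in CK30, with 4.86 in RD80 and 0.10 in RD30.

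Xyloglucan is the main polymer that ties cellulose fibrils together in such walls. Of 11 genes that make or remodel it, 7 were lower in CK80 and 1 was higher, with a median log2 ratio of -1.33. The endotransglucosylase/hydrolase 8 (Cs2g07590), which cuts and rejoins xyloglucan, had 18.2 in CK80 and 142 in CK30, and 29.3 in RD80 and 68.6 in RD30. The glycosyltransferase 12 (Cs3g16380) had 103 in CK80 and 183 in CK30, against 41.3 in RD80 and 39.1 in RD30. In the RD pair 2 of 9 xyloglucan genes were lower. With RD30 in place of CK30, CK80 had 3 higher and 2 lower, so the balance of the list turned.

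Of 57 genes of pectin, the gel between the fibrils, 16 were lower in CK80 and 8 were higher. In RD80 5 of 59 were lower and 7 higher, and with RD30 in place of CK30, CK80 had 8 lower and 8 higher. Pectinesterase 40 (Cs5g33450), which removes methyl groups from pectin, had 29.8 in CK80 and 291 in CK30, and 31.96 in RD80 and 108 in RD30. All 9 galacturonosyltransferases, the pectin-building enzymes of the list, were expressed. Of them 5 were lower in CK80 and none was higher, against 1 lower and none higher in RD80. Their summed FPKM was 430 in CK80 and 1208 in CK30, and 287 in RD80 and 434 in RD30. Of 34 arabinogalactan and structural wall proteins, 17 were lower in CK80 and 8 higher, with a median of -0.81. In RD peel 10 were lower and 5 higher, with a median of -0.47. The proline-rich protein DC2.15 (Cs5g09080) had 1.1 in CK80 and 22.4 in CK30 but 5.32 in RD80 and 4.35 in RD30. Proline-rich protein 4 (Cs8g09070) had 26.4 in CK80 and 2.75 in CK30, and 36.3 in RD80 and 1.99 in RD30.

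Endoglucanase 10 (Cs3g25940), an enzyme family that trims cellulose, had 23.6 in CK80 and 151 in CK30, and 34.4 in RD80 and 71.8 in RD30. Of 18 genes of cellulose synthesis and endoglucanases, 7 were higher in CK80 and 4 lower, which turned to 5 and 6 with the median ratio taken off. Of 12 aquaporins, which pass water or small solutes through membranes, 5 were higher and 1 was lower. PIP2-6 (Cs8g08820) had 12.8 in CK80 and 1.52 in CK30, and 45.3 in RD80 and 2.30 in RD30. PIP1-2 (Cs5g03460), the most abundant, had 508 in CK80 and 657 in CK30. Of 10 vacuolar pump genes 1 was higher and none lower.

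Several of the largest falls were in abundant proteins linked to defence. The lectin-related protein orange1.1t05126, of a family that binds sugars, had an FPKM of 41.8 in CK80 and 11191 in CK30, where it was the most abundant described gene. It had 73.5 in RD80 and 12894 in RD30. Endochitinase 1 (orange1.1t05124), of a family that cuts the chitin of fungal walls, had 24.5 in CK80 and 6891 in CK30, and 153 in RD80 and 2184 in RD30. The chitinase Cs8g01840 had 43.3 in CK80 and 5036 in CK30, and 435 in RD80 and 2142 in RD30. A defensin (Cs1g19393), a small antimicrobial protein, had 1.6 in CK80 and 481 in CK30, and 1.02 in RD80 and 265 in RD30. All 4 were far lower at 80 DAFB in both peels.

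The miraculin Cs5g16770, a relative of protease inhibitors, had 1077 in CK80 and 8194 in CK30, and Cs5g16780 had 1010 and 6159. In RD peel they had 2248 and 2239 at 80 DAFB, against 6498 and 5748 at 30 DAFB. Together, those 2 miraculins, the 2 chitinases, and the lectin-related protein held 0.36% of all FPKM in CK80 and 6.34% in CK30, against 0.85% in RD80 and 4.83% in RD30. The 100 most abundant genes held 21.9% in CK80 and 27.1% in CK30. FPKM is relative to all reads of a library, so the median was recomputed without those 5 genes. Each library was also divided by the sum of its remaining FPKM. The median log2 ratio of CK80 to CK30 was then 0.18, against 0.31 as deposited. Part of that difference came from the division itself, because the sums over all genes were 608693 in CK80 and 590640 in CK30.

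The defence list as a whole was mixed. Of 55 chitinases and pathogenesis-related proteins, 17 were lower in CK80 and 13 higher. Their summed FPKM was 2938 in CK80 and 28047 in CK30, against 6026 in RD80 and 18177 in RD30. Of 8 expressed chitinases alone, 4 were higher and 3 lower in CK80, with a median log2 ratio of 1.44. In RD80 1 of 8 was higher and 4 were lower, with a median of -1.23. The sum of the chitinases still fell, with 172 in CK80 and 12009 in CK30, because the abundant ones were lower. Another endochitinase 1 gene (Cs8g01810) was listed at 0 in CK80 and had 54.1 in CK30. The allergen-like Pru ar 1 (Cs9g03660) rose, with 14.6 in CK80 and 0.70 in CK30. Copies of 1 gene can share reads, and how similar these chitinases and miraculins are was not examined. Of 274 disease resistance proteins, receptors that sense pathogens, 66 were higher (24.1%) and 32 were lower (11.7%), and with the median ratio taken off 45 were higher and 51 lower.

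**Figure D4:**
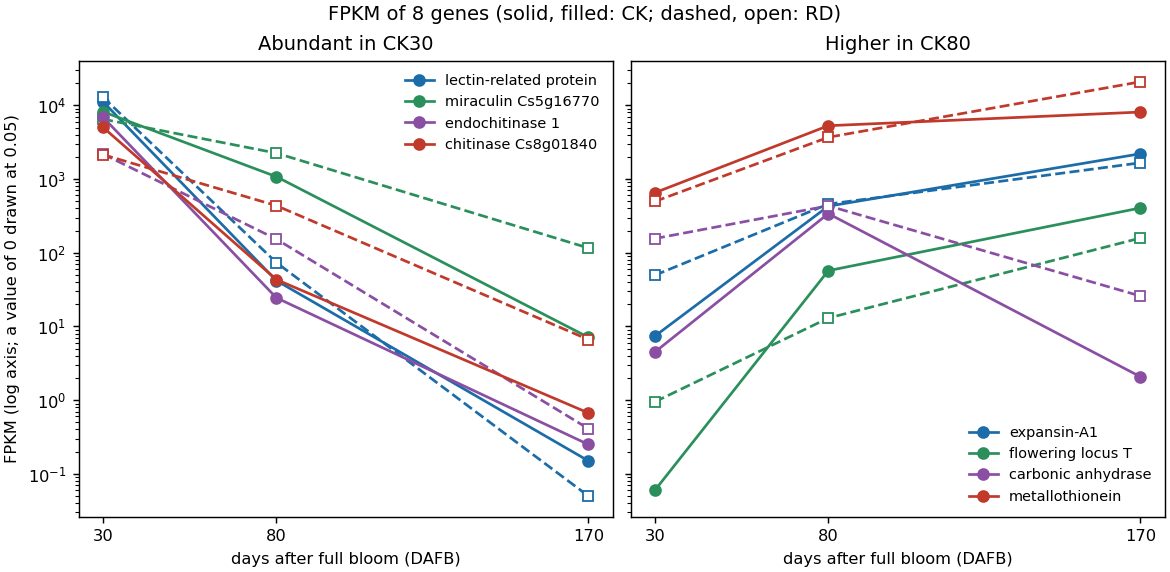
FPKM (log axis, 0 drawn at 0.05) of 8 genes at 30, 80, and 170 DAFB (x axis) in CK (solid lines, filled circles) and RD (dashed lines, open squares) peel. The 4 genes on the left went on falling to 170 DAFB in both peels, while expansin-A1, metallothionein, and flowering locus T on the right were highest at 170 DAFB.

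The largest rises of described genes included regulators. Flowering locus T (Cs6g05140), a mobile signal that promotes flowering in many plants, had 57.1 in CK80 and 0.06 in CK30, and 13.0 in RD80 and 0.95 in RD30. It had 405 in CK170. A BEL1-like homeodomain protein (orange1.1t04599) had 25.7 in CK80 and 0.15 in CK30, and 16.4 in RD80 and 0.20 in RD30. NAC100 (Cs6g21520), a transcription factor, had 10.4 in CK80 and 0.14 in CK30, and 5.81 in RD80 and 0.58 in RD30. The neighboring F-box genes Cs2g02880 and Cs2g02870, parts of protein-tagging complexes, had 25.9 and 19.8 in CK80, against 0.15 and 0.25 in CK30. In RD80 they had 12.1 and 8.33, against 0.10 and 0 in RD30. Values this far below 1 rest on few reads, so their ratios are imprecise although the direction was the same in both pairs.

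Other rises were in enzymes. A fatty acid amide hydrolase (Cs1g08550) had 17.5 in CK80 and 0.21 in CK30, and 12 in RD80 and 0.39 in RD30. The aspartic protease ASPG2 (Cs7g06720) had 16.4 and 0.25 in CK, and 22.0 and 0.21 in RD. Purple acid phosphatase 8 (Cs2g17970), which releases phosphate, had 12.2 in CK80 and 0.19 in CK30 but 0.85 in RD80 and 0.91 in RD30. It was the one of the 10 largest rises that was not above its 30 DAFB value in RD80. Metallothionein (Cs1g07330), a metal-binding protein, had 5293 in CK80 and 653 in CK30, and 3688 in RD80 and 497 in RD30. A chloroplast-type aspartate aminotransferase (orange1.1t05559) had 14.5 in CK80 and 7.28 in RD80, and was listed at 0 in CK30 and RD30.

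The largest fall of a described gene was that of serine carboxypeptidase-like 18 (Cs8g03880), which had 0.04 in CK80 and 15.7 in CK30, and 0.24 in RD80 and 22.5 in RD30. Tyrosine decarboxylase (Cs7g16560), which makes tyramine, had 0.24 and 20.4 in CK, and 0.62 and 26.7 in RD. Nerolidol synthase (Cs2g07250), which makes a volatile terpene, had 0.31 and 33.3 in CK, and 0.35 and 10.1 in RD. Galactose oxidase (Cs3g25730), a heat shock cognate protein (Cs7g29040), and an LRR receptor kinase (Cs2g31150) had at most 5.06 in CK80, against 145, 60.9, and 213 in CK30, and at most 2.51 in RD80, against at most 10.1 in RD30. In RD their log2 ratios were -1.54, -0.84, and -2.38, against -6.33, -6.03, and -5.39 in CK. Galactose oxidase and the LRR receptor kinase thus passed 2-fold in both pairs, with a smaller fall in RD. TRANSPARENT TESTA 12 (Cs5g20110), a transporter family of flavonoids, was listed at 0 in CK80 and RD80 and had 19.8 in CK30 and 12.1 in RD30.

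Limonene and gamma-terpinene synthases of the oil glands differed in direction. All 7 expressed limonene synthases, which make the main oil of citrus peel, were higher in CK80, with a median log2 ratio of 2.30 and a summed FPKM of 973 in CK80 and 317 in CK30. The sum was 816 in RD80 and 713 in RD30, where 3 of 6 were higher. None of the 5 gamma-terpinene synthases was higher and 2 were lower. The one past the limit with an FPKM of at least 10 (Cs8g14120) had 10.2 in CK80 and 192 in CK30, and 12.3 in RD80 and 38.5 in RD30. Germacrene D synthases went both ways, with 4 of 10 higher and 2 lower in CK80, against 1 higher and none lower in RD80. The gene orange1.1t04360 had 53.5 in CK80 and 7.97 in CK30, and 135 in RD80 and 35.1 in RD30. Of all 29 terpene synthases, 11 were higher and 5 lower, or 10 and 7 with the median ratio taken off. How similar the limonene synthases are, and so how far they could share reads, was not examined.

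Of 13 genes that supply isoprenoid units, 6 were higher and 1 was lower, or 3 and 2 with the median ratio taken off. The plastid enzymes DXS2 (Cs1g20530), which starts the plastid route, and hydroxymethylbutenyl diphosphate reductase (Cs5g28200), which ends it, had 229 and 487 in CK80, against 85.3 and 184 in CK30. The one lower gene, HMG-CoA reductase 1 (Cs8g01160) of the cytosolic route, had 76.1 in CK80 and 189 in CK30. In RD peel none of the 13 passed 2-fold.

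Flavonoid and phenylpropanoid genes moved both ways. Of 49 flavonoid genes, 21 were higher and 9 lower in CK80. Chalcone synthase (Cs2g14720), the first enzyme of the flavonoid route and the most abundant, had 751 in CK80 and 2460 in CK30, and 924 in RD80 and 1806 in RD30. A second chalcone synthase (Cs3g19360, picked with its values known) had 258 in CK80 and 66.0 in CK30, and 166 in RD80 and 26.5 in RD30. Of 58 phenylpropanoid genes, 21 were higher and 7 lower. Caffeoyl-CoA O-methyltransferase (Cs1g12670), an enzyme of lignin monomers, had 28.7 in CK80 and 4.64 in CK30. The abundant caffeic acid O-methyltransferase orange1.1t04194 had 1273 in CK80 and 1819 in CK30. After the median ratio was taken off, 13 flavonoid genes were higher and 10 lower, and 18 phenylpropanoid genes were higher and 13 lower.

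In the cuticle, the wax and cutin layer that seals the peel, 7 of 21 genes were higher and 3 lower in CK80, against 8 and 4 of 22 in RD80. HOTHEAD (Cs5g10170), which in Arabidopsis takes part in cutin synthesis, had 18.3 in CK80 and 1.77 in CK30, and 25.4 in RD80 and 3.94 in RD30. Fatty acyl-CoA reductase 2 (orange1.1t02246) had 161 in CK80 and 36.5 in CK30. The lipid-transfer protein AKCS9 (Cs6g18330) had 443 in CK80 and 65.8 in CK30, and 602 in RD80 and 71.1 in RD30. Ketoacyl-CoA synthase 11 (Cs7g04850), which lengthens fatty acids, had 0.42 in CK80 and 14.4 in CK30. The lipid-transfer protein DIR1 (orange1.1t01576) had 11.7 in CK80 and 197 in CK30, but 93.9 in RD80 and 135 in RD30.

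Starch is made in plastids, and of 12 genes of its synthesis 6 were higher in CK80 and 1 was lower, or 4 and 1 with the median ratio taken off. The large subunit of ADP-glucose pyrophosphorylase (Cs9g06360), which makes the building block of starch, had 38.6 in CK80 and 6.78 in CK30, and 34.8 in RD80 and 25.1 in RD30. In the RD pair 1 of 11 synthesis genes was higher. Of 20 genes of starch breakdown 4 were higher in CK80 and none was lower, or 2 and 2 with the median ratio taken off. Their summed FPKM was 880 in CK80 and 1122 in CK30, and 825 in RD80 and 693 in RD30. The most abundant, beta-amylase 1 (orange1.1t03470), had 503 in CK80 and 862 in CK30, and 431 in RD80 and 321 in RD30. Sucrose synthase (Cs4g06850), which splits sucrose in growing tissue, had 345 in CK80 and 924 in CK30, and 387 in RD80 and 540.2 in RD30. Of 22 sugar transporters, 8 were higher and 3 lower, or 3 and 3 of the 15 that reached 5 FPKM. All 3 lower genes were sugar carrier protein C genes, which were also lower in RD80. The gene with the largest fall (Cs2g06900) had 4.6 in CK80 and 24.8 in CK30, and 7.53 in RD80 and 29.8 in RD30.

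Among hormone genes, 5 of 10 of those of abscisic acid, a hormone of drought and ripening, were higher in CK80 and none was lower. With the median ratio taken off, 5 were higher and 1 was lower. The abscisic stress-ripening protein Cs3g21500 had 353 in CK80 and 75.6 in CK30, and 299 in RD80 and 42.8 in RD30. In RD peel 3 of 11 were higher and 2 lower. Gibberellin promotes growth, and the gibberellin-inactivating oxidase GA2ox8 (Cs2g07550) had 14.3 in CK80 and 0.43 in CK30, but 27.6 in RD80 and 27.6 in RD30. Gibberellin-regulated protein 1 (Cs3g26100) had 192 in CK80 and 7.79 in CK30, while its relative snakin-1 (Cs8g04550) had 10.5 and 249. Both kept these directions in RD peel, with 102 in RD80 and 14.6 in RD30 for the first, and 5.74 in RD80 and 99.3 in RD30 for snakin-1.

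Of 21 jasmonate genes, 7 were lower in CK80 and 1 was higher. Jasmonate is a hormone of wounding and defence. The lipoxygenase Cs1g17380, an early enzyme of its synthesis, had 179 in CK80 and 579 in CK30, but 57.2 in RD80 and 56.6 in RD30. In RD peel 3 were higher and 3 lower, and against RD30, CK80 had 6 higher and 2 lower. Of 23 cytokinin genes 9 were higher and 3 lower in CK80, or 6 and 6 with the median ratio taken off. Response regulator ARR9 (orange1.1t01850) had 15.3 in CK80 and 1.04 in CK30, but 10.7 in RD80 and 29.3 in RD30. The auxin-responsive repressor IAA17 (Cs1g13960) had 15.7 in CK80 and 54.6 in CK30, and 22.5 in RD80 and 61.2 in RD30.

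Growth regulators moved both ways. TCP factors of the class of TCP4 limit cell proliferation in Arabidopsis leaves, and growth-regulating factors (GRFs) promote it. The TCP genes counted here were not separated by class. Of 9 expressed TCP genes, 4 were higher in CK80 and none was lower, against none higher and 3 lower of 10 in RD80. With the median ratio taken off, 2 of the 4 stayed past 2-fold. TCP4 (Cs2g15820) had 57.0 in CK80 and 9.61 in CK30, but 52.5 in RD80 and 69.8 in RD30. Of 4 expressed GRFs, 2 were lower and 1 was higher. GRF12 (Cs5g09850) had 2.50 in CK80 and 18.6 in CK30, and 2.65 in RD80 and 22.8 in RD30, and GRF1 (Cs1g21350, picked with its values known) had 0.31 and 3.49 in CK, and 0.46 and 5.68 in RD. The higher one, GRF3 (Cs6g15330), had 2.26 in CK80 and 1.13 in CK30, but 1.15 in RD80 and 2.86 in RD30. The falls of GRF12 and GRF1 were thus found in both pairs.

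Of 49 YABBY, homeobox, and MADS factors, 14 were higher (28.6%) and 3 lower (6.12%) in CK80. The shares of all members were 23.4% and 9.06%. In RD80 5 of 49 were higher and 7 lower. A MADS factor like FLOWERING LOCUS C (Cs5g10810), a repressor of flowering in Arabidopsis, had 264 in CK80 and 60.8 in CK30, and 260.1 in RD80 and 231 in RD30. Of 34 ethylene response factors 10 were higher (29.4%) and 6 lower (17.6%) in CK80, against 3 higher and 13 lower of 37 in RD80. ERF017 (Cs4g06410) had 3.82 in CK80 and 152 in CK30, and 9.02 in RD80 and 36.3 in RD30. Of 22 WRKY factors, which take part in defence, 8 were higher (36.4%) and 1 lower (4.55%) in CK80, against 6 and 2 of 24 in RD80. With the median ratio taken off, 6 were higher and 1 lower in CK80. Of 37 MYB factors 12 were higher (32.4%) and 5 lower (13.5%) in CK80, but 2 higher and 6 lower of 39 in RD80. The shares over all genes in RD80 were 7.15% and 9.44%. The bHLH92 gene (Cs9g08460), the most abundant bHLH factor, had 33.0 in CK80 and 161 in CK30, against 4.07 in RD80 and 9.23 in RD30.

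Clock and heat shock genes respond to the hour and temperature of sampling in plants. Of 14 clock and CONSTANS-LIKE genes 5 were higher (35.7%) in CK80 and none was lower. In RD80 the counts were 3 and 1 of 14, and the RD median was -0.35. Set against RD30, CK80 had 1 of these genes higher and 2 lower. LHY (orange1.1t00580), a clock gene of the morning, had 338 in CK80 and 135 in CK30, and 384 in RD80 and 103 in RD30. Of 40 heat shock proteins and factors, which protect proteins from heat, 12 were higher (30%) and 4 lower (10%) in CK80. These shares were near the 23.4% and 9.06% of all members, and with the median ratio taken off 9 were higher and 6 lower. The summed FPKM was 4314 in CK80 and 4921 in CK30. In RD80 2 of 41 were higher and 15 lower, with sums of 3151 in RD80 and 10191 in RD30. Hsp90 (Cs4g08220) had 663 in CK80 and 2139 in CK30, but 835 in RD80 and 431 in RD30. The part of hour or heat at sampling in the other results was not tested.

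**Figure D5:**
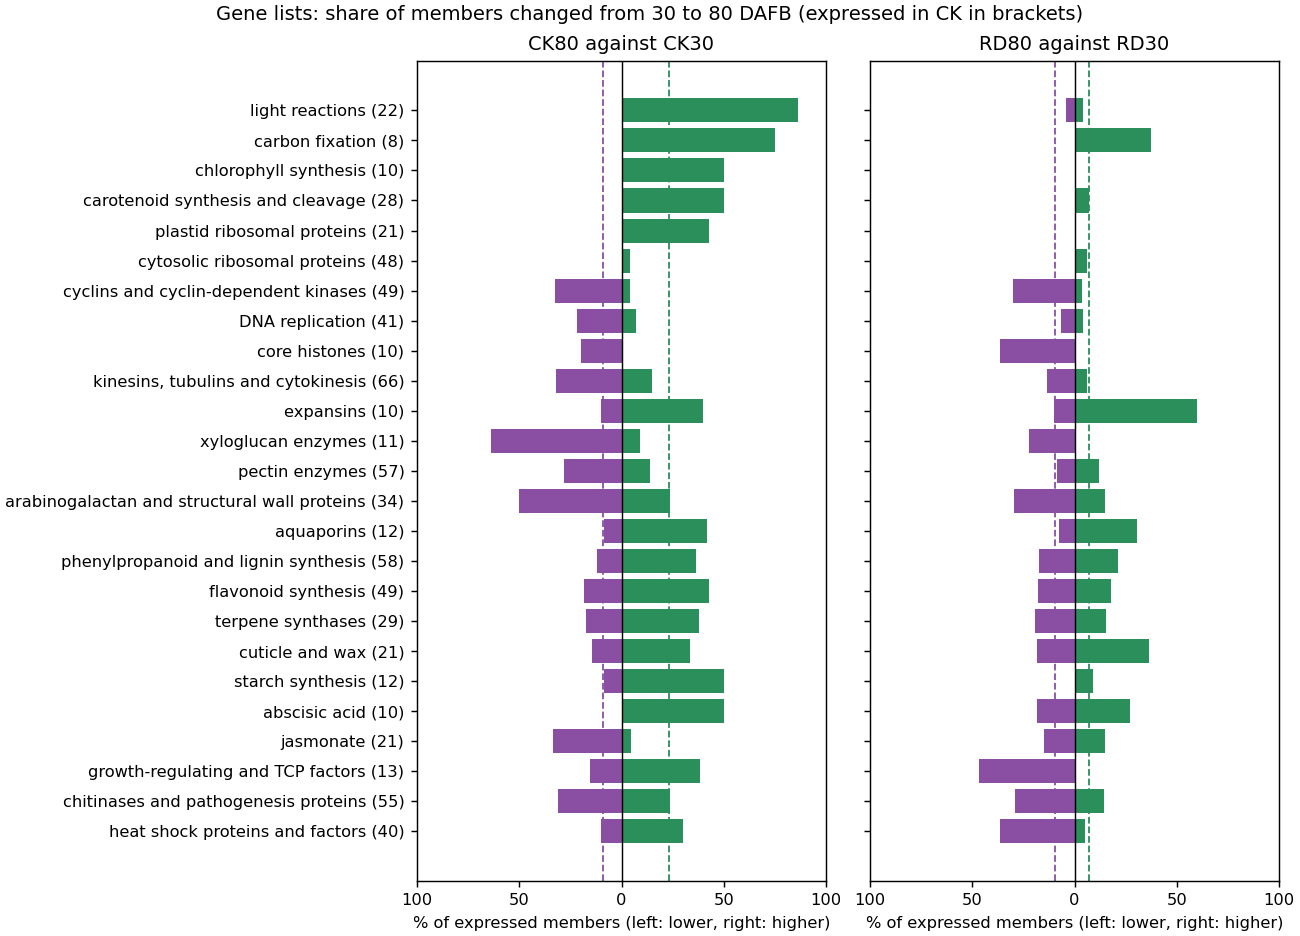
Percent of expressed members at least 2-fold higher (green, to the right) or lower (purple, to the left) at 80 against 30 DAFB for 25 gene lists in CK (left panel) and RD (right panel) peel. Dashed lines mark the shares over all genes, which are 23.4% and 9.06% in CK and 7.15% and 9.44% in RD. Photosynthesis lists stand past the line in CK, and the purple bar of the cyclin list passes its line in both panels.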

How the data were processed

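RNA-Seq was done on 6 peel libraries, each from 1 pool. Adapter and low-quality reads were discarded by the authors, who aligned the others to the genome of sweet orange (Bowtie, BWA) and estimated FPKM per gene with RSEM (versions not given in the sources used here). The deposited FPKM are scaled to transcript length and to mapped fragments. Read counts per gene and transcript lengths were not used here, so the depth behind a value is unknown. Low FPKM moved in steps: of 298 genes with 0.1 to 0.3 in both CK80 and CK30, 87 had equal values to 2 decimals.

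The ratio was FPKM in CK80 over that in CK30, with no pseudocount. A gene counted as expressed at 1 FPKM in the higher library and as changed at 2-fold. The FDR on reads that the study adds needs counts and was not run. The rule was tested on simulated data. Python 3.11.15, numpy 2.4.6, and pandas 2.3.3 were used.

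The members and the 52 gene lists, made from words in the protein match of each gene, were chosen with earlier results of these data known, and the ethylene list, the subgroups of lists, and the families were set after their values were seen. A list is described by its counts and its median. Genes were named by rule: the 10 largest rises and 10 largest falls of described genes with at least 10 FPKM, the 10 most abundant in each library, the 3 most abundant listed at 0 in the other, and the most abundant, highest, and lowest changed member of each list. Any other gene named was chosen after its values were seen. Of the members, 7846 had a descriptive match and 9541 had none.

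Alternatives were other filters, pseudocounts, scalings, and fold limits, and other library pairs. The table of Satsuma genes from RefSeq matched 0 gene IDs, so no position or sequence is given and the planned count of promoter motifs was not run.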

Additional observations from a re-analysis of the deposited data

Results flagged for a closer look

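Among the genes named by rule, 4 passed 2-fold in both pairs but in opposite directions, and the difference between the pairs was not tested. Over all members, 156 were higher in CK80 and lower in RD80, and 24 were lower in CK80 and higher in RD80. The aquaporin PIP2-2 (Cs6g11700) had a log2 ratio of -1.80 in CK peel, with 23.5 in CK80 and 82.0 in CK30, and of 1.02 in RD peel, with 93.2 in RD80 and 46.1 in RD30. The cytokinin response regulator ARR9 (orange1.1t01850) had a log2 ratio of 3.88 in CK and -1.46 in RD. The transcription factor bHLH130 (Cs7g02010) had 1.04 in CK and -1.14 in RD, with 32.6 in CK80 and 15.9 in CK30, against 15.2 in RD80 and 33.6 in RD30. The small heat shock protein HSP22 (Cs5g18500) had 3.89 in CK, with 20.2 in CK80 and 1.36 in CK30, and -5.78 in RD, with 4.03 in RD80 and 222 in RD30.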

How the results depend on the processing

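No paired analysis was possible because each side has 1 library, and for the same reason no library could be left out. Without a filter on low FPKM 2860 genes were lower in CK80, and with a filter of 5 FPKM 2648 were higher and 1031 lower. At 1.5-fold the counts were 6634 and 2581, and at 4-fold 1407 and 647. Scaling to ACTIN, which had an FPKM of 192 in CK80 and 247 in CK30, gave 6193 higher genes. The higher genes were 72.1% of those changed as deposited, 84.8% with ACTIN, 56.8% with the upper quartile, and 55.5% relative to the median. RD80 against RD30 gave 1273 higher genes and CK80 against RD30, chosen after seeing the data, gave 1530. A filter or pseudocount cannot turn the direction of a ratio, and each scaling shifted all ratios by less than 2-fold. For named genes past 2-fold, a reversal between CK80 and CK30 was therefore not possible under those settings. Relative to the median ratio, 8 of 142 named genes crossed the 2-fold limit. Between RD80 and RD30 4 passed 2-fold the other way, as given above, and with RD30 in place of CK30 17 of 141 reversed and 22 lists, against 37 with CK30, had more higher than lower members. The log2 ratios of CK80 to RD30 were -0.18 for protochlorophyllide reductase Cs1g06850, 0.25 for HMG-CoA reductase Cs8g01160, -0.95 for Cs2g07550, -0.94 for orange1.1t01850, 1.66 for Cs1g17380, -0.29 for TCP4 Cs2g15820, 1.84 for Cs9g08460, -0.044 for Cs7g02010, 0.62 for Hsp90 Cs4g08220, and -3.45 for Cs5g18500. Those not named elsewhere were 0.0231 for the COBRA-like Cs5g12190, -0.17 for orange1.1t00725, 0.59 for Cs2g01990, 0.9972 for Cs8g14700, -0.14 for Cs3g05960, 1.62 for orange1.1t01926, and 0.085 for Cs8g01170. The cause was not tested. Ratios of genes with far less than 1 FPKM rest on few reads, whose number is unknown.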

Other observations

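Some gene families not described so far were uneven in CK peel. They were picked after their values were seen, so their counts are a description. Of 9 lysosomal Pro-X carboxypeptidases, which trim peptides, 7 were higher in CK80 and none was lower, and 7 were higher in RD80 as well. One of them (Cs7g17740) had 22.7 in CK80 and 1.53 in CK30, and 19.9 in RD80 and 7.86 in RD30. Of 28 glutathione S-transferases, which attach glutathione to reactive compounds, 16 were higher in CK80 and 1 was lower, against 4 and 5 in RD80. Of 63 cytochrome P450 genes, oxidases of secondary metabolism, 35 were higher and 10 lower in CK80, against 14 and 13 in RD80. Of 9 plastid-lipid-associated proteins 7 were higher in CK80 and none in RD80.

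Of 16 UPF0481 proteins, whose role is unknown, 8 were lower in CK80 and 1 was higher, and 7 were lower in RD80. Of 34 RPP13-like disease resistance proteins, 12 were lower and 5 higher in CK80, and none passed 2-fold in RD80.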
